A study of Mus musculus with 4 samples.

Results

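The genes that set the pace of G1 were followed in mouse fibroblasts with and without PTIP: the D cyclins Ccnd1, Ccnd2 and Ccnd3, the kinases Cdk4 and Cdk6, the CIP/KIP inhibitors Cdkn1a and Cdkn1b, and the INK4 inhibitors Cdkn2a, Cdkn2b and Cdkn2c. All probe sets annotated to 1 of these symbols alone were taken, which gave 26 probe sets for the 10 genes, out of 34945 probe sets and 18193 genes. The 10 genes were chosen by their place in G1 control with genotype differences of these same arrays in view, among them the lower Ccnd1 signal in PTIP -/-, so their genotype differences are given as a description and carry no test. Paxip1 encodes PTIP, which carries BRCT domains and works with the MLL3/MLL4 histone methyltransferases and in the response to DNA damage.

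The cells were immortalized mouse embryonic fibroblasts (MEFs) with both Paxip1 alleles flanked by loxP sites (PTIP flox/flox). A retrovirus carrying Cre recombinase gave the PTIP -/- cells and the empty vector the PTIP +/+ cells, so the floxed alleles and a retroviral infection were common to both groups. All cells grew in 10% serum and were selected with 2.5 µg/ml puromycin, and 2 RNAs of each genotype were hybridised to 4 Affymetrix arrays. The sources used here do not give how the line was immortalized, whether it was 1 clone, or whether the RNAs numbered 1 and 2 came from separate cultures or infections, so p-values measure only the spread between these samples.

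D cyclins pair with CDK4 or CDK6 in response to growth factors, and these kinases phosphorylate RB proteins, which frees E2F factors to switch on the genes of S phase. INK4 proteins bind CDK4 and CDK6 directly, whereas the CIP/KIP proteins p21 (Cdkn1a) and p27 (Cdkn1b) bind cyclin-CDK complexes. The Cdkn2a locus makes p16Ink4a and, from another first exon, p19Arf, which acts on p53 through MDM2. In cultured MEFs the products of Cdkn2a build up with passage, and loss of Arf or p53 is a usual route to immortal growth.

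Paxip1 read 43.5 and 74.6 on its brightest probe set in PTIP -/- cells, against 1029.5 and 1040.1 in PTIP +/+ cells. The array signal is a linear intensity, scaled by array to a common trimmed mean, and a signal of 47.68 was taken as the lowest that could be read as a level. Summed over 8 fibroblast markers (3 higher and 5 lower), the signal was 148942.5 and 132307.8 in PTIP -/- and 153619.8 and 159318.5 in PTIP +/+ replicates 1 and 2, so the genotypes did not overlap. Its brightest member was vimentin, Vim, at 30992.3 and 33293.8 in PTIP -/-, against 31040.7 and 39291.8 in PTIP +/+. Over all 12509 genes tested, the summed signal was also lower without PTIP, with no overlap. This total was 18460918.3 and 19077540.2 for PTIP -/- against 19136673.6 and 19818664.4 for PTIP +/+, and the marker sums were not scaled to it. Quantile normalization turned the log2 difference of Vim from -0.12 to 0.03. Col1a1 went from -0.37 to -0.2 and Col1a2 from -0.32 to -0.14. Macrophage markers summed to 560.5 to 845.3 in PTIP -/- and 460.4 to 642.1 in PTIP +/+, with Csf1r the brightest by its mean at 226.0 to 278.2 and 218.1 to 277.0. Lyz2, also a macrophage marker, read 333.3 and 99.9 in PTIP -/-, against 153.4 in PTIP +/+ replicate 1 and a signal below 47.68 in replicate 2, a log2 difference of 1.12 in number 1 and 1.47 in number 2. The sums were 202.2 to 300.1 and 169.0 to 259.9 for endothelial markers, brightest Kdr at up to 172.0 and 126.5, and 459.9 to 705.1 and 381.7 to 493.3 for epithelial markers, brightest Epcam at up to 436.1 and 356.0. This Epcam probe set is of a kind that may also bind related transcripts, and the other Epcam probe set lay below 47.68 on all 4 arrays. Muscle markers summed to 324.2 to 345.7 and 193.5 to 276.1, so they did not overlap either and were higher in PTIP -/-. Of all genes tested, 16.6% did not overlap on the higher side. Ckm, the brightest muscle marker, read up to 164.4 and 123.1. Its other probe set ran the other way, at 22.7 and 50.5 in PTIP -/- against 87.5 and 81.1 in PTIP +/+. Des was higher in PTIP -/- on both probe sets, at 84.7 and 85.8 against 70.2 and 72.9, and at 219.5 and 108.2 against 32.3 and 19.5. Myod1 read 57.8 and 53.8 against 30.2 and 26.7 on its brighter probe set. Myog overlapped, at 41.2 and 20.2 against 52.6 and 8.7. The means of Myod1 and Myog lay below 47.68. With quantile normalization the log2 difference on the brightest probe set went from 0.25 to 0.06 for Des and from 0.67 to 0.50 for Ckm. Pecam1, Cdh1, Adipoq and Lep lay below 47.68 on all 4 arrays. The fat cell marker Fabp4 read 16.1 and 4029.7 in PTIP -/-, against 60.2 and 3351.8 in PTIP +/+, apart by replicate number and not by genotype. In bulk RNA such as this, fewer cells of a kind and less RNA per cell cannot be told apart.

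The start regions of Cdkn1a, Cdkn2a and Cdkn2b are shown here because these inhibitors differed most between arrays of 1 genotype, or stand next to a gene that did, and because Cdkn2a has 2 starts behind a single probe set. RefSeq windows of 250 bases before to 50 after a start (build GRCm38.p6) were found for 8 of the 10 genes, 12 windows in all. Ccnd1 and Ccnd2 had no window in the table. Capitals mark a GC box (GGGCGG, either strand), a cyclic AMP response element (TGACGTCA, its own reverse complement), an E2F element (TTTCCCGC or TTTGGCGC, either strand) or the p53 consensus decamer. The Cdkn2a and Cdkn2b windows lie on chromosome 4, minus strand, at chr4:89294570-89294869 (the outer Cdkn2a start), chr4:89282143-89282442 (the inner one) and chr4:89310983-89311282 (Cdkn2b), and those of Cdkn1a on the plus strand at chr17:29090729-29091028 and chr17:29093519-29093818.
Cdkn2a, outer start: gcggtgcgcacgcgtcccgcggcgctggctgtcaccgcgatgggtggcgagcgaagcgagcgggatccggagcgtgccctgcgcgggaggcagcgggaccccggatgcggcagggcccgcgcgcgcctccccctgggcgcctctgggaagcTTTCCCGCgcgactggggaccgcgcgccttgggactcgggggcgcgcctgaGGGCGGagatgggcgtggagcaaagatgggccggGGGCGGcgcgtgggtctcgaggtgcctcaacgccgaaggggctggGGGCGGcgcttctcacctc
Cdkn2a, inner start: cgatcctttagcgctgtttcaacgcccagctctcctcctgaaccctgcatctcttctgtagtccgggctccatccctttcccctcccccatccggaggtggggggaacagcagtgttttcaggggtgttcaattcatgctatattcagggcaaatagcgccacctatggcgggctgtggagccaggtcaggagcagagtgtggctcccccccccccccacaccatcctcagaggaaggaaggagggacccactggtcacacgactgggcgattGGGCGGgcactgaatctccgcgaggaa
Cdkn2b: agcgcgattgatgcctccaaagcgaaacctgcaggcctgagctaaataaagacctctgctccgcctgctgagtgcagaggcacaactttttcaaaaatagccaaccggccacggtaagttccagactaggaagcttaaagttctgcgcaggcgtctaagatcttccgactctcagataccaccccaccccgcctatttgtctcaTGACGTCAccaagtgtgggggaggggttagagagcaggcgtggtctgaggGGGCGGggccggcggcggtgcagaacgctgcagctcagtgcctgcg
Cdkn1a, outer start: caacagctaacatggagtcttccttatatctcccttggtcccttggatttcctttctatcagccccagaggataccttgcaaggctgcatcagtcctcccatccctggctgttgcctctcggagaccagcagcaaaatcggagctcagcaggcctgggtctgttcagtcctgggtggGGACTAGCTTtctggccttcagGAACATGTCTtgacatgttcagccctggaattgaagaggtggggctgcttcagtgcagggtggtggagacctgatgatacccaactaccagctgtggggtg
Cdkn1a, inner start: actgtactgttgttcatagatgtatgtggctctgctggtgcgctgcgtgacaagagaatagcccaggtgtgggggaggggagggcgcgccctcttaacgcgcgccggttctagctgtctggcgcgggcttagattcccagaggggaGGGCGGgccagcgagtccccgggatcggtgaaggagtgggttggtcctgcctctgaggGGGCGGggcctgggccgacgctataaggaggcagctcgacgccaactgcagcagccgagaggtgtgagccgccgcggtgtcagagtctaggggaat

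The outer Cdkn2a window held 3 GC boxes and 1 E2F element (TTTCCCGC), and the inner window 1 GC box. The Cdkn2b window held 1 GC box and 1 cyclic AMP response element. In the outer Cdkn1a window 2 p53 decamers were found, GGACTAGCTT and GAACATGTCT, and in the inner window 2 GC boxes. No marked motif overlapped another in these 5 windows. Among all 32851 windows in the table, 35.7% held a GC box, 1.79% a cyclic AMP response element, 1.07% TTTCCCGC, 0.514% TTTGGCGC and 8.36% a p53 decamer. These matches describe the letters alone, as no binding was measured.

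Across the 10 genes, Ccnd1 was the member that stood apart by genotype. All 10 brightest probe sets passed the level filter, and 24 of the 26 probe sets did. By the mean, 5 genes were higher and 5 lower in PTIP -/- (43.9% of all genes tested were lower), around a median log2 difference of 0.00, against 0.05 over all 12509 genes tested. In the limma fit over all genes 0 of the 10 passed an adjusted p of 0.05, as did 0% of the 12509 genes. The smallest adjusted p of that fit was 0.999. Paxip1 itself, 18.2-fold lower in PTIP -/-, did not pass, so failing to pass does not show that a gene was unchanged. Of the 12509 genes, 286 (2.29%) had an unadjusted limma p under 0.05, 118 lower (0.943%) and 168 higher (1.34%). With 2 arrays against 2, the smallest two-sided p of an exact permutation test is 0.333. The PTIP -/- and PTIP +/+ signals did not overlap for 1 of the 10 genes on the lower side (12.1% of all genes) and for 0 on the higher side (16.6%).

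**Figure D1:**
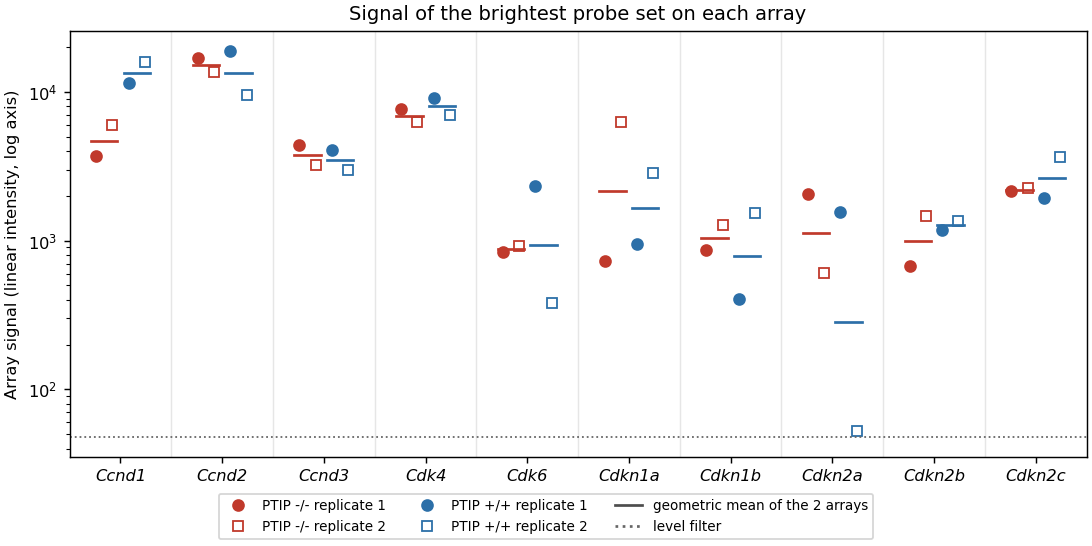
Array signal (linear intensity on a log axis) of the brightest probe set of each gene, PTIP -/- left of PTIP +/+, circles for replicate 1 and squares for replicate 2, with bars at the geometric mean of 2 arrays and a dotted line at the level filter of 47.68. Ccnd1 is the gene whose genotypes do not overlap, and Cdkn2a in PTIP +/+ replicate 2, at 52.1, lies next to the filter.

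Ccnd1, cyclin D1, the D cyclin that couples growth factor and adhesion signals to CDK4/6, read 3683.5 and 5977.2 in PTIP -/- cells, against 11425.1 and 15736.4 in PTIP +/+ cells. The highest PTIP -/- array lay below the lowest PTIP +/+ array. The mean log2 signal was 12.20 ± 0.49 in PTIP -/- and 13.71 ± 0.33 in PTIP +/+ (SD, n = 2 each), a difference of -1.51 ± 0.38 (SE), or 2.86-fold lower in PTIP -/-. Its other probe sets gave the same picture. The second read 2738.9 and 4654.0 against 8148.2 and 11781.6 (log2 -1.46), and the third 1518.3 and 2350.1 against 4286.3 and 5675.4 (log2 -1.38). Within replicate number 1 the 3 probe sets lay between -1.63 and -1.50, and within number 2 between -1.40 and -1.27. Leaving out 1 array at a time moved the difference between -1.86 and -1.17, and other settings moved it between -1.69 and -1.44. The fibroblast marker sum and the sum over all genes tested were lower on the same PTIP -/- arrays, as given above. The muscle marker sum was higher on them. The part of these sums in the Ccnd1 difference was not tested. Ccnd1 ranked 118 from the lowest of 12509 genes, and it was the only one of the 10 at least 1.5-fold lower within both numbers (2.21% of all genes), with 0 at least 1.5-fold higher within both (3.43%).

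The tested genes whose profile over the 4 arrays came closest to that of Ccnd1 were Ptger4, Dbil5, C2cd4b, Col12a1 and Pde8a. Likeness was the root mean square distance between log2 profiles, each centred on its own mean, over the 4 arrays. Ptger4, a prostaglandin E2 receptor, was nearest at 0.098, with 149.4 and 275.5 in PTIP -/- and 535.7 and 639.9 in PTIP +/+. Col12a1, a collagen chain, followed at 0.226 and Pde8a, a cyclic AMP phosphodiesterase, at 0.230. Dbil5 (0.144) and C2cd4b (0.184) were dim, with C2cd4b below 47.68 on both PTIP -/- arrays and Dbil5 on 1 of them. These distances rest on 4 arrays and are a description.

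The other D cyclins had smaller mean differences, and their genotypes overlapped. Ccnd2, cyclin D2, a mitogen-induced partner of CDK4/6 in many cell types, read 16914.7 and 13666.3 in PTIP -/-, against 18910.8 and 9442.0 in PTIP +/+ (log2 0.19 ± 0.43, SE). The PTIP +/+ arrays lay outside the PTIP -/- arrays on either side. All 7 Ccnd2 probe sets had a positive mean difference, from 0.18 to 0.59, and all were positive within number 2 (0.31 to 0.95), whereas 4 of the 7 were negative within number 1. Without PTIP +/+ replicate 2 the Ccnd2 difference was -0.31.

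Ccnd3, cyclin D3, read 4352.8 and 3223.9 in PTIP -/-, against 4065.2 and 2970.0 in PTIP +/+ (log2 0.11 ± 0.32, SE), a difference that turned to -0.07 when arrays were centred on their medians. It turned to -0.11 without PTIP -/- replicate 1 and to -0.12 without PTIP +/+ replicate 2. A dimmer probe set read 170.1 and 140.5 against 232.0 and 160.3 (log2 -0.32), and the remaining one lay below 47.68 on all arrays.

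**Figure D2:**
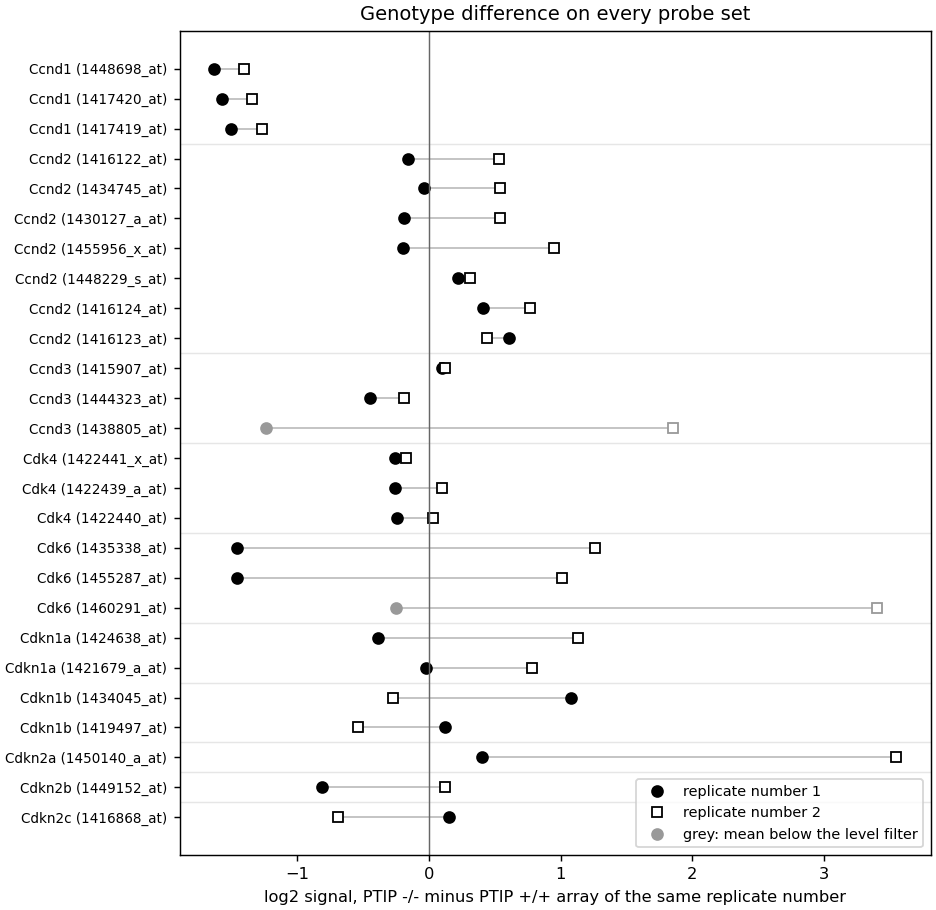
Difference in log2 signal, PTIP -/- minus PTIP +/+ array of the same replicate number, for each of the 26 probe sets, circles for number 1 and squares for number 2, with grey marks for the 2 probe sets below the level filter. The 3 Ccnd1 probe sets sit together between -1.63 and -1.27, and the brighter ones of Cdk6 at -1.46 in number 1 and 1.01 and 1.26 in number 2.

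Both kinases overlapped between the genotypes. Cdk4, the catalytic partner of the D cyclins in most cells, read 7631.7 and 6225.9 in PTIP -/-, against 9111.1 and 7005.7 in PTIP +/+ (log2 -0.21 ± 0.29, SE). Its other probe sets gave -0.11 and -0.08. The brightest is of a kind that may also bind related transcripts.

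Cdk6, the close relative of Cdk4, differed in opposite directions within the numbers. It read 841.7 and 913.5 in PTIP -/-, against 2315.5 and 381.6 in PTIP +/+. The PTIP -/- arrays were close to each other, and the PTIP +/+ arrays lay 6.07-fold apart on either side of them. Cdk6 was therefore 2.75-fold lower in PTIP -/- within number 1 and 2.39-fold higher within number 2, for a mean of -0.10 ± 0.93 (SE). A second probe set gave the same pattern, with -1.46 and 1.01. The third lay below 47.68 on all arrays. Without PTIP +/+ replicate 1 the mean difference was 1.20 and without PTIP +/+ replicate 2 it was -1.40. Of the 10 genes, Cdk6 was the 1 at least 1.5-fold apart in opposite directions (2.31% of all genes), and 6 of 10 had opposite signs in the numbers (40.3% of all genes).

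**Figure D3:**
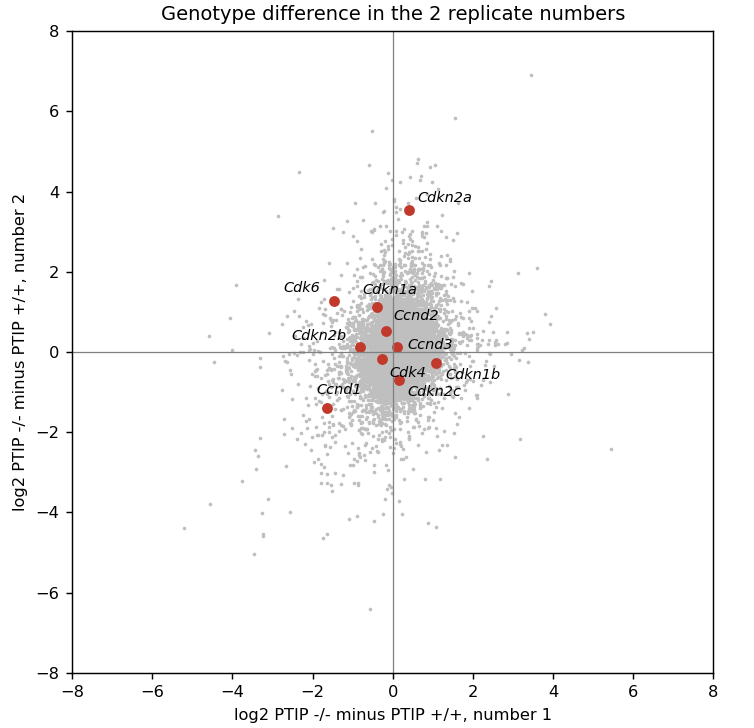
Log2 difference, PTIP -/- minus PTIP +/+, within replicate number 1 (horizontal) against number 2 (vertical), grey points for the 12509 genes tested and red points for the 10 genes. Ccnd1 lies at -1.63 and -1.40, Cdk6 at -1.46 and 1.26, and Cdkn2a at 0.40 and 3.55.

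Cdkn1a and Cdkn1b, of the CIP/KIP family, were higher on both arrays numbered 2 than on both numbered 1. Cdkn1a, whose product p21 is a p53-induced inhibitor of cyclin-CDK complexes, read 729.8 and 6258.2 in PTIP -/-, against 955.1 and 2849.8 in PTIP +/+. Replicate 2 lay above replicate 1 by 8.58-fold in PTIP -/- and 2.98-fold in PTIP +/+. The genotype difference was -0.39 within number 1 and 1.13 within number 2, a mean of 0.37 ± 1.23 (SE), and it turned to -1.18 with PTIP -/- replicate 2 left out and to -0.42 with PTIP +/+ replicate 1 left out. The second Cdkn1a probe set showed the same order of replicates, with 450.3 and 2770.6 in PTIP -/- and 456.4 and 1616.2 in PTIP +/+.

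Cdkn1b, whose product p27 holds cells in G1 when growth factors are scarce, read 862.2 and 1264.9 in PTIP -/-, against 407.1 and 1522.2 in PTIP +/+. The PTIP +/+ arrays again lay on either side of the PTIP -/- arrays. The mean difference was 0.41 ± 0.73 (SE), with 1.08 in number 1 and -0.27 in number 2, and it was -0.54 without PTIP +/+ replicate 1. On the second, dimmer probe set the difference was -0.21.

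Cdkn2a had the highest mean difference of the 10 genes, and it rested on 1 array. Its signals were 2064.5 and 609.1 in PTIP -/-, against 1563.2 and 52.1 in PTIP +/+. The last value, in PTIP +/+ replicate 2, lay just above the level filter, while the other 3 arrays were far above it. Cdkn2a was 1.32-fold higher in PTIP -/- within number 1 and 11.7-fold higher within number 2, for a mean log2 difference of 1.97 ± 1.82 (SE). Without PTIP +/+ replicate 2 the difference was -0.48, and without PTIP +/+ replicate 1 it was 4.43. Within a genotype, replicate 2 read 3.39-fold lower than replicate 1 in PTIP -/- and lower by a log2 difference of -4.91 in PTIP +/+. A single probe set stands for both starts printed above, so p16Ink4a and p19Arf transcripts cannot be told apart.

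Cdkn2b, next to Cdkn2a on chromosome 4 and the gene of p15Ink4b, did not follow its neighbour. It read 674.9 and 1468.0 in PTIP -/-, against 1182.5 and 1347.5 in PTIP +/+ (log2 -0.34 ± 0.46, SE), with PTIP -/- replicate 1 the low array. Without that array the difference was 0.22. Cdkn2b replicate 2 was above replicate 1 in both genotypes, where Cdkn2a replicate 2 was below.

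Cdkn2c, the gene of p18Ink4c, read 2142.8 and 2257.0 in PTIP -/-, against 1925.2 and 3641.1 in PTIP +/+ (log2 -0.27 ± 0.40, SE). PTIP +/+ replicate 2 was the high array, and without it the difference was 0.19. Over the 5 inhibitors, 3 had a positive and 2 a negative mean difference, and leaving out 1 array turned the sign of each of them.

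**Figure D4:**
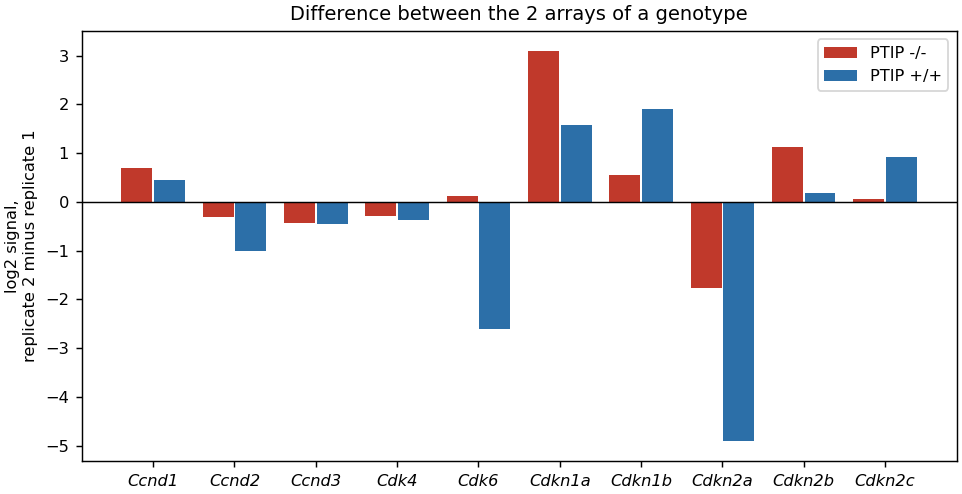
Log2 signal of replicate 2 minus replicate 1 within PTIP -/- (red) and PTIP +/+ (blue), for the brightest probe set of each gene, with 1 array on either side of each difference and no error. Cdkn1a lies at 3.10 and 1.58 and Cdkn2a at -1.76 and -4.91, whereas Ccnd3 and Cdk4 lie within 0.45 of 0.

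Of the 10 genes, Cdkn1a and Cdkn2a were at least 2-fold apart between the replicate numbers in the same direction in both genotypes (7.67% of all genes). The fibroblast surface marker Thy1 also differed between the numbers, with 14822.9 and 1500.7 in PTIP -/- and 16080.1 and 239.2 in PTIP +/+. So did Pdgfra, a growth factor receptor of mesenchymal cells, with 3563.4 and 174.2 in PTIP -/- and 5010.1 and 583.2 in PTIP +/+. These 2 were picked from the 8 fibroblast markers, which did not all follow them. Over the 8, the median log2 difference between replicates 2 and 1 was -0.12 in PTIP -/- and 0.11 in PTIP +/+. Vim was higher in replicate 2 in both genotypes. The part of Thy1 and Pdgfra in the values of the inhibitors was not tested.

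Genes that act around the G1 regulators were taken from 8 lists and are described by counts. In the limma fit over all genes 0 of their members passed, as did 0% of all genes tested. Each count of lower genes stands beside a share of 43.9% lower in PTIP -/- over all genes tested. In the RB and E2F list 9 of 13 were lower in PTIP -/- and 4 higher, around a median of -0.04. E2f8, a repressor of the E2F family that is itself made in S phase, read 472.5 and 380.9 in PTIP -/-, against 949.9 and 972.8 in PTIP +/+ (log2 -1.18 ± 0.26, SE), with -1.82 on its second, dim probe set. Rbl1, the RB relative p107, differed by -0.83 ± 0.32 (SE), with -0.28 on the other probe set above the level filter. E2f6, a repressor of the family, differed by -0.55 ± 0.25 (SE), with -0.07 on the other, and E2f7 by -0.49 ± 0.50 (SE), turning to 0.08 without PTIP -/- replicate 2.

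Among the G1/S and S phase cyclins, kinases and phosphatase, 6 of 8 were lower in PTIP -/-, where 43.9% of all genes tested were, around a median of -0.17, with the medians in both numbers at -0.22. The median was -0.01 without PTIP -/- replicate 2 and 0.00 without PTIP +/+ replicate 1. Ccna2, cyclin A2 of S phase, read 3804.7 and 2924.1 in PTIP -/-, against 4931.5 and 5878.7 in PTIP +/+ (log2 -0.69 ± 0.29, SE), and Ccne2, a cyclin E, differed by -0.53 ± 0.31 (SE). Cdk2, their kinase, differed by -0.32 ± 0.49 (SE), turning to 0.17 without PTIP -/- replicate 2 and to 0.04 without PTIP +/+ replicate 1 (its other probe set was below the level filter). Ccnh, a subunit of the CDK-activating kinase, differed by -0.21 ± 0.24 (SE).

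In the G2/M list 5 of 5 analysed members were lower, where 43.9% of all genes tested were. They lay around a median of -0.51, with -0.20 in number 1 and -0.90 in number 2. The median was -0.27 without PTIP -/- replicate 2 and -0.78 without PTIP -/- replicate 1. Wee1, which holds CDK1 inactive, differed by -0.90 ± 0.41 (SE) on both of its probe sets. The CDK1-activating phosphatases Cdc25b and Cdc25c differed by -0.69 ± 0.38 and -0.51 ± 0.33 (SE). Cdc25b stood at -0.27 without PTIP -/- replicate 2 and Cdc25c at -0.19 without PTIP +/+ replicate 2, and the other Cdc25c probe set gave -0.17, with 0.30 in number 1. The mitotic cyclin Ccnb2 differed by -0.39 ± 0.36 (SE), and by 0.00 without PTIP -/- replicate 2.

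Of the CDK inhibitors outside the 10, Cdkn1c, the p57 member of the CIP/KIP family, read 1543.7 and 69.8 in PTIP -/-, against 2135.9 and 22.9 in PTIP +/+, the last below the level filter. Its arrays numbered 1 were the high ones, as for Cdkn2a and opposite to Cdkn1a and Cdkn1b, and the mean of 0.57 ± 2.75 (SE) turned to -1.66 without PTIP -/- replicate 1 and to -2.70 without PTIP +/+ replicate 2. Cdkn2d, p19Ink4d, differed by -0.05 ± 0.37 (SE), turning to 0.21 without PTIP -/- replicate 2 and to 0.26 without PTIP +/+ replicate 2.

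Genes that turn over or assemble G1 regulators were divided, with 8 of 14 higher and 6 lower and a median of 0.07, which became -0.11 with arrays centred on their medians. Fbxo31, an F-box protein for cyclin D1, differed by 0.64 ± 0.33 (SE), with -0.38 on its other probe set. Fbxw7, the F-box protein of cyclin E, differed by 0.53 ± 0.26 (SE), with 0.52 and 0.55 in the numbers and 0.15 on its other probe set. The ubiquitin ligase scaffold Cul4a differed by 0.51 ± 0.34 (SE), and Dtl, a CUL4 substrate receptor for p21, by -0.42 ± 0.26 (SE), with -0.75 to 0.14 on 5 other probe sets.

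Of the mitogen-driven genes that act on D cyclins, 9 of 14 were lower and 5 higher in PTIP -/-, where 43.9% of all genes tested were lower. They lay around a median of -0.35, which ran from -0.29 to 0.01 with 1 array left out. Egr1, an early growth factor response gene, differed by -1.25 ± 0.44 (SE). Mycn read 8762.9 and 10049.3 in PTIP -/-, against 26953.9 and 12293.2 in PTIP +/+ (log2 -0.96 ± 0.46, SE). This difference was -0.39 without PTIP +/+ replicate 1. The other Mycn probe sets were far dimmer, with means below the level filter. The Mycn level and its difference therefore rest on the brightest probe set alone. Myc differed by -0.53 ± 0.53 (SE), and by -0.03 without PTIP -/- replicate 2. Fos differed by -0.51 ± 0.61 (SE), turning to 0.17 without PTIP +/+ replicate 2.

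Around Cdkn1a, 7 of 12 genes of the p53 list were higher and 5 lower, with a median of 0.13 that became -0.04 with arrays centred on their medians. Aen, an apoptotic nuclease, differed by -0.60 ± 0.33 (SE), and Bbc3, the cell death protein PUMA, by -0.58 ± 0.24 (SE). Gadd45a, a growth arrest gene, differed by 0.57 ± 0.33 (SE), and Perp by 0.47 ± 2.09 (SE), turning to -1.30 without PTIP -/- replicate 2 and to -1.96 without PTIP +/+ replicate 1.

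Around Cdkn2a, 6 of 11 tested regulators were lower and 5 higher, with a median of -0.10. Cdc6, a replication licensing factor, read 344.8 and 251.8 in PTIP -/-, against 498.0 and 696.3 in PTIP +/+ (log2 -0.53 in number 1 and -1.47 in number 2). Eed and Ezh2, subunits of the Polycomb complex that marks the locus, differed by -0.45 ± 0.24 and -0.27 ± 0.35 (SE), with the other Eed probe set below the level filter and 0.06 for Ezh2 without PTIP -/- replicate 2. Tbx3, a T-box repressor of p19Arf, differed by 0.49 ± 0.33 (SE), with 0.34 on the other probe set above the level filter.

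**Figure D5:**
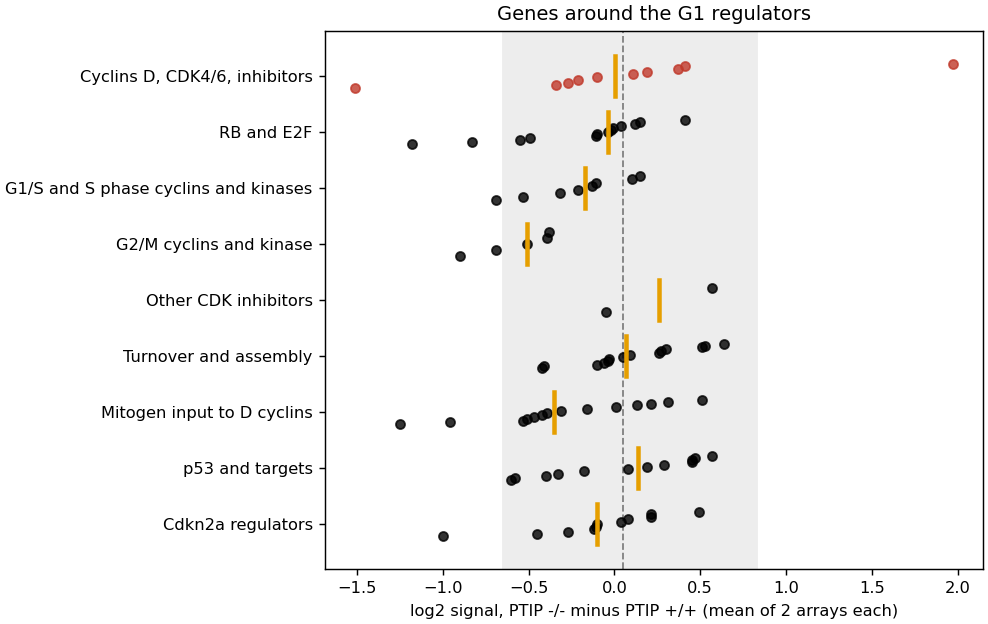
Difference in mean log2 signal, PTIP -/- minus PTIP +/+, for each tested gene of the G1 regulators (red) and of the 8 lists around them (black), with an orange bar at the median of a list, a dashed line at the median of all genes (0.05) and a grey band from the 5th to the 95th percentile of all genes (-0.65 to 0.83). Ccnd1 at -1.51 and Cdkn2a at 1.97 lie outside the band on opposite sides.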

How the data were processed

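Total RNA from 2 PTIP -/- and 2 PTIP +/+ fibroblast samples was hybridised to Affymetrix arrays after biotin labelling, per the labels' protocols. The deposited values are linear intensities of 45101 probe sets. RMA is named, without a version, in the submitters' processing notes, but the deposited intensities have a trimmed mean of 500.0 on all 4 arrays (2% left out at each end) and unequal medians of 97.8 and 82.5 in PTIP -/- and 83.2 and 75.8 in PTIP +/+, as scaling to a common trimmed mean gives. The sources used here do not give the background correction or probe summary. No detection calls were used, and the number of arrays limits the precision.

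Intensities were taken to log2, 1 zero having been set to 0.1, and 64 control probe sets were left out. Symbols came from the platform annotation, 34945 probe sets having 1 symbol, 932 several and 9160 none, and were updated through the RefSeq gene table of GRCm38.p6 for 34741. The brightest probe set by its mean stood for a gene, which was tested if this mean was at or above 47.68 (the 40th percentile over probe sets). This left 12509 of 18193 genes. Other probe sets were fitted in a table of all probe sets. The PTIP -/- minus PTIP +/+ difference was fitted with limma 3.58.1 in R 4.3.3 (lmFit, eBayes, no covariate, 2 residual degrees of freedom), with Benjamini-Hochberg adjustment over all genes tested. The code was also run on simulated data with independent noise on each array and no deviation shared by replicate number. That run checks the code and does not show how the fit performs on these arrays. Within a replicate number 1 array stands against 1 array, with no test.

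The genes and lists were chosen with earlier results of these data known. Named genes are the 10 members, Paxip1, up to 4 tested genes of each list with the largest absolute difference, the brightest marker of each cell type and the 5 genes nearest to Ccnd1 in profile. Lyz2, Krt18, Krt8, Des, Myod1, Myog, Thy1, Pdgfra, Mdm2, Ccng1, Btg2 and Zmat3 were chosen after their values were seen. Listed genes with no tested probe set were not analysed here. Alternatives were quantile normalization, median centring, no level filter or one at the 60th percentile, a variance trend, no moderation, averaging over the probe sets of each gene, all probe sets, the replicate block, signals raised to the filter, and each array left out. The lists were not tested for enrichment.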

Additional observations from a re-analysis of the deposited data

How the results depend on the processing

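Over the 14 alternatives limma called 0 genes at an adjusted p under 0.05 each time. Without adjustment 168 higher and 118 lower genes had a p under 0.05, and 76 and 204 did with arrays centred on their medians, a scaling that moved the median of all genes from 0.05 to -0.13. The replicate block gave 0 calls too, with 612 higher and 370 lower at an unadjusted p under 0.05. Same-numbered arrays deviated together from their genotype means (r of 0.686 across genes, which are not independent replicates), but the labels do not say that a number pairs samples. With the block the Ccnd1 difference was -1.51 ± 0.21 (SE) and that of Cdkn2a 1.97 ± 0.86 (SE).

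Of 140 member values under alternatives, 128 kept their sign and 12 turned. Many of the 128 could not turn, so this count does not measure robustness. The filter changes, the variance trend, no moderation, all probe sets, the replicate block and raised signals left each member's difference as it was. Under the remaining alternatives, which could move a difference, Ccnd1 and Cdk4 kept their signs. Cdk4 ran from -0.40 to -0.02 over the arrays left out. Ccnd3 turned to -0.07 with centred arrays and Cdk6 to 0.42 over the mean of its probe sets. That Cdk6 mean includes a probe set below 47.68 on all 4 arrays (1.57), whereas the brighter ones gave -0.10 and -0.23. The other turns came from leaving out 1 array, over which the difference ran from -0.31 to 0.69 for Ccnd2, -0.12 to 0.33 for Ccnd3, -1.40 to 1.20 for Cdk6, -1.18 to 1.92 for Cdkn1a, -0.54 to 1.36 for Cdkn1b, -0.48 to 4.43 for Cdkn2a, -0.90 to 0.22 for Cdkn2b and -0.73 to 0.19 for Cdkn2c.

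List medians with centred arrays were -0.17 for the 10 genes, -0.22 for RB and E2F, -0.35 for G1/S, -0.69 for G2/M, 0.08 for the other CDK inhibitors, -0.11 for turnover and assembly, -0.53 for mitogen input, -0.04 for p53 and -0.28 for Cdkn2a regulators. Over the mean of probe sets they were 0.07 for the 10 genes, -0.13 for RB and E2F, -0.19 for G1/S, -0.39 for G2/M, 0.26 for the other CDK inhibitors, 0.09 for turnover and assembly, 0.14 for p53, -0.20 for mitogen input and 0.03 for Cdkn2a regulators, and with raised signals -0.01 for the other CDK inhibitors. Leaving out 1 array gave -0.28 to 0.00 for the 10 genes, -0.26 to 0.08 for RB and E2F, -0.47 to 0.00 for G1/S, -0.78 to -0.27 for G2/M, -1.22 to 1.74 for the other CDK inhibitors, 0.08 to 0.16 for turnover and assembly, -0.29 to 0.01 for mitogen input, -0.64 to 0.44 for p53 and -0.24 to 0.08 for Cdkn2a regulators. The cause of these moves was not tested, beyond that leaving out an array leaves the replicate numbers unequal between genotypes.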

Other observations

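Several p53 targets were apart by replicate number in the way of Cdkn1a, in both genotypes. Ccng1, cyclin G1, read 1730.9 in replicate 1 and 8509.0 in replicate 2 of PTIP -/-, and 1535.7 and 5133.5 in those of PTIP +/+. Btg2, an antiproliferative gene, read 238.0 and 1260.9 in PTIP -/-, against 212.7 and 1262.4 in PTIP +/+, and Perp, a membrane protein of p53-driven cell death, 67.9 and 787.2 in PTIP -/- and 30.9 (below the level filter) and 899.2 in PTIP +/+. Zmat3, an RNA-binding protein, was 2.57-fold higher in replicate 2 than in replicate 1 in PTIP -/- and 2.26-fold higher in PTIP +/+. Mdm2, the p53 ubiquitin ligase, differed less between the numbers and in opposite directions in the genotypes, with 2059.1 and 2482.7 in PTIP -/- and 1693.3 and 1606.8 in PTIP +/+. Bbc3 was nearly level between the numbers, at 141.0 and 142.4 in PTIP -/- and 206.9 and 218.3 in PTIP +/+. Of all genes tested, 7.67% were at least 2-fold apart between the numbers in the same direction in both genotypes. Over the 12 genes of the list the median log2 difference between replicates 2 and 1 was 0.77 in PTIP -/- and 0.47 in PTIP +/+, against -0.04 and -0.03 over all genes tested. These differences have 1 array on either side and no test.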
